A study of Mus musculus with 4 samples.

Results

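The interferon-γ-inducible GTPases described here are 10 genes of 2 families, the guanylate-binding proteins Gbp2, Gbp3, Gbp4, Gbp5, Gbp6 and Gbp7 and the immunity-related GTPases Irgm1, Irgm2, Igtp and Iigp1. They were taken by gene symbol from the 54752 genes counted in the series, and all 10 had enough reads to be tested. The series compared Tfh-polarized CD4+ T cells of WT mice with those of mice homozygous for floxed alleles of both kinase genes (Map2k1 fl/fl and Map2k2 fl/fl) that carried Cd4-Cre (Mek1/2-tKO), and which therefore lack the kinases MEK1 and MEK2 in T cells, with 2 libraries per genotype. Naïve splenic CD4+ T cells of both genotypes were stimulated for 3 days through plate-bound anti-CD3 and anti-CD28 with IL-6 and with antibodies that block IFN-γ, TGF-β, IL-4 and IL-2, so that every group shares the blockade of IFN-γ protein. Cells that were viable on day 3 were sorted for RNA extraction. Cd4-Cre is active from the thymus onward, so deletion in the knockout begins before T cells mature. The mice were on a C57BL/6 background. The age and number of the mice behind these libraries, whether animals were pooled and whether the WT mice carried Cre or the floxed alleles are not given in the sources used here, so that p values measure the spread between these libraries only.

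Both families belong to the cell-autonomous defence of vertebrates. Interferon-γ binds its receptor, the receptor-bound kinases JAK1 and JAK2 start the signal, and GAS and ISRE elements in the promoters of target genes receive it, with IRF1 among the factors that bind ISREs. The induced GTPases then coat the vacuoles or the surface of intracellular bacteria and parasites, where GBPs help to break membranes and to expose bacterial ligands to inflammasomes. Irgm1, Irgm2 and Igtp (Irgm3) carry GMS in place of GKS in the nucleotide-binding loop and act as regulators on host membranes, and Iigp1 (Irga6) is a GKS effector that loads onto vacuoles. In T cells, Irgm1 is known for supporting survival during responses to IFN-γ.

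The promoter stretches of the members are shown because GAS and ISRE elements are where the interferon signal reaches target genes. RefSeq promoters (GRCm38.p6) of 7 of the 10 members were searched. Whether the members left out have a RefSeq promoter is not given here. The search covered the 250 bases before each start on both strands. An ISRE was written as GAAA, then 2 bases of any kind, then GAAA (TTTC, 2 bases, TTTC on the other strand). A GAS was written as TTCNNNGAA, which has the same letters on both strands. An ISRE match can overlap another ISRE match, and ISRE and GAS matches did not overlap in the stretches printed. Capitals mark matches, lower case the flanking bases, and each sequence runs 5′ to 3′ on the strand of its gene. Starts are those of RefSeq and need not be those of the counted annotation. Where the wider window touched an annotated exon, no more than 30 bases are shown.
Gbp2, chr3:142620594-142620623, plus strand: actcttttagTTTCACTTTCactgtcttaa
Gbp3, chr3:142559992-142560021, plus strand: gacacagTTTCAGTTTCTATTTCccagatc
Gbp5, chr3:142496749-142496798, plus strand: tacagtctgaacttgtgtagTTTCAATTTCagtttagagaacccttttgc
Gbp7, chr3:142530263-142530312, plus strand: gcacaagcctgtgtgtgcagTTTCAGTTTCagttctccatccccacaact
Irgm1, chr11:48871428-48871457, minus strand: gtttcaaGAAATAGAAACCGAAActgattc
Irgm2, chr11:58214882-58214942, plus strand: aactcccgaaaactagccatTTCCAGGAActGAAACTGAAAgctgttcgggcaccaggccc
Igtp, chr11:58199491-58199551, plus strand: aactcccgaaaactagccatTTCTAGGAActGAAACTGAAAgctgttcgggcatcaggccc

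Counted by gene, all 7 members searched held an ISRE match in a promoter, against 3.46% of the 27025 genes in the RefSeq table, and 4 of them (Gbp5, Gbp7, Irgm2 and Igtp) held a GAS match, against 8.13%. The 7 members had 8 promoter entries, and the further one of Gbp3 held neither. Counted by promoter, 2.98% of 32851 held an ISRE match and 7.02% a GAS match. The printed promoter of Gbp3 and that of Irgm1 each held 2 overlapping ISRE matches. Irgm2 and Igtp carried a GAS match followed directly by an ISRE match, and their stretches were identical at 59 of 61 bases. The GAS matches of Gbp7, 2 in number, lay upstream of its ISRE, as shown in the next line.
Gbp7, chr3:142530210-142530277, plus strand: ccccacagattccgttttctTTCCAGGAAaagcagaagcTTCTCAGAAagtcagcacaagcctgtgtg
Outside the 10, the same order and orientation of a GAS and an ISRE was found in Tgtp1, Tgtp2 and Gm12185. Their stretches of equal length matched that of Igtp at 39 to 43 bases, and the genes were called higher. Of the 150-base windows of their transcripts, 64.9% for Tgtp1 and 68.4% for Tgtp2 recur in other genes. The single values of Tgtp1 and Tgtp2 are therefore uncertain. Gm12250, which was not called (log2 fold change 0.04), held a GAS with an ISRE on the opposite strand on either side. These 4 genes were singled out after their values were seen. A match describes letters in this window and says nothing about binding in these cells.

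The 10 genes did not move together. In edgeR's quasi-likelihood test, where a call needed both a 1.5-fold difference and a Benjamini-Hochberg adjusted p below 0.05, 4 of the 10 members were higher in Mek1/2-tKO cells (Irgm1, Gbp3, Gbp4 and Gbp7) and 0 were lower, while 19.3% of the 14330 genes tested were higher and 16.4% were lower. No member was lower at an unadjusted p under 0.05 and that fold change, and DESeq2 also called 4 higher and 0 lower. At the adjusted p alone, 6 members were higher and 1, Gbp5, was lower, in all 7 of 10 against 55.0% of all tested genes. The median log2 fold change of the members was 0.44, beside 0.02 over all tested genes. These shares stand for a list chosen with earlier results in view, and the members are neighbours in the genome and not independent of each other. With 2 libraries per genotype, an exact permutation test of a single gene reaches no two-sided p below 0.333, and the adjusted p values depend on the variance that edgeR shares between genes.

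**Figure D1:**
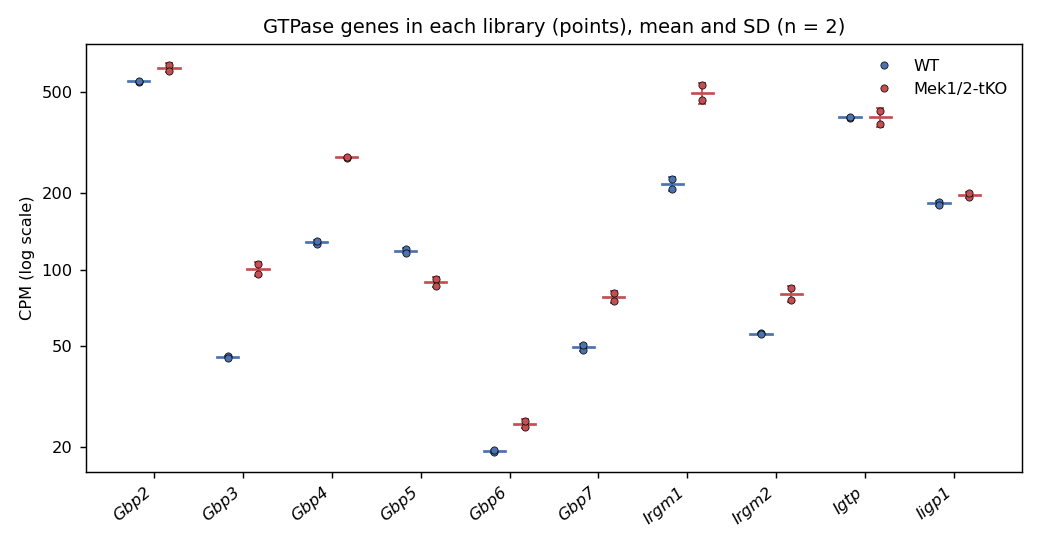
Level of each GTPase gene in each library, in CPM, which are counts scaled to library size (log axis). Points are libraries, horizontal bars the mean and vertical bars the SD of the 2 libraries of a genotype. The points of the genotypes overlap for Igtp. Separated points are not a call, and some members with separated points were not called. With 2 libraries per genotype, the points of an unchanged gene can also separate, and the share of such genes over all tested genes is not given here. The fitted fold changes of the called genes Irgm1, Gbp3, Gbp4 and Gbp7 were 1.58 to 2.29.

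Levels are given as CPM, the counts of a gene scaled to a common library total with edgeR's TMM factors. Of the targeted genes, Map2k1 was read at 182 and 187 CPM in WT and at 98.0 and 105 CPM in Mek1/2-tKO, a log2 fold change of -0.86, and Map2k2 at 155 and 165 against 172 and 182 CPM, which was not called. Reads over a whole gene can include transcripts that lack only the floxed exons. Reads of those exons were not examined, and the source of the remaining reads was not tested. Each library held between 16330802 and 18931090 counts in all. Of 10 markers of CD4+ αβ T cells, 0 were higher and 5 lower (Cd4, Cd28, Zap70, Cd3e and Trac), and their summed level was 2336 and 2341 CPM in WT and 1682 and 1511 CPM in Mek1/2-tKO. Cd4 itself was at 297 and 289 CPM in WT and at 18.8 and 25.1 CPM in Mek1/2-tKO, which goes against the label of the knockout libraries, while Cd3d (0.20), Cd3g (0.24), Trbc1 (0.16) and Trbc2 (-0.03) were not called (log2 fold changes). The summed level of 11 B-cell markers was 1447 and 1418 CPM in WT and 6845 and 6802 CPM in Mek1/2-tKO, and all but Fcer2a of the 11 were higher. All 10 NK-cell markers were higher (57.0 to 60.0 CPM in sum in WT, 333 to 383 CPM in Mek1/2-tKO), as were all 6 tested γδ T-cell genes (4.77 to 8.11 against 188 to 205 CPM) and both CD8 genes (59.3 to 67.4 against 214 to 238 CPM). The summed level of 12 myeloid markers was 4.16 to 4.77 CPM in WT and 23.9 to 29.3 CPM in Mek1/2-tKO, with Adgre1, S100a8, C1qa, Clec9a and Siglech at 0 in both WT libraries. In bulk RNA, more cells of a type and more RNA per cell cannot be told apart. The part of these other cells in the values that follow was not tested.

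**Figure D2:**
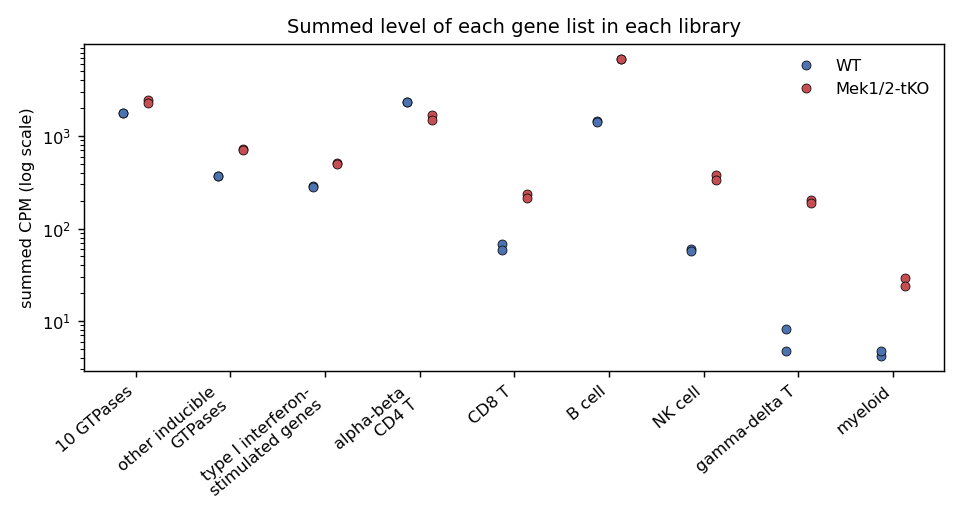
Summed CPM (log axis) of the 10 GTPases, of other inducible GTPases, of type I interferon-stimulated genes and of cell type markers in each library (points). The sum of the 10 GTPases was 1778 and 1759 CPM in WT and 2442 and 2300 CPM in Mek1/2-tKO, and the sums of the B-cell, NK-cell, γδ T-cell, CD8 and myeloid markers were all higher in Mek1/2-tKO.

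On a per-length scale, Gbp2 and Igtp dominated the family in both genotypes. In WT cells, Gbp2 stood at 425 ± 0.901 TPM, counts per exon length scaled to a common total, and Igtp at 382 ± 1.01 TPM (SD, n = 2 each). Iigp1 followed at 113 ± 3.41 TPM and Irgm1 at 72.7 ± 5.26 TPM. The order then ran from Gbp5 (34.7 ± 1.16 TPM) over Gbp4 (33.1 ± 0.373 TPM), Irgm2, Gbp3 and Gbp7 to Gbp6 (6.26 ± 0.0266 TPM). No neighbours in this order overlapped between the WT libraries, although Gbp5 and Gbp4 were close. In Mek1/2-tKO cells the order was Gbp2 (360 ± 13.6 TPM), Igtp (287 ± 1.61 TPM), Irgm1 (124 ± 2.15 TPM), Iigp1 (91.7 ± 9.46 TPM), Gbp4, Gbp3, Irgm2, Gbp7, Gbp5 and Gbp6. Irgm1 thus passed Iigp1, Gbp3 passed Irgm2, and Gbp5 moved from rank 5 to rank 9, where its libraries overlapped those of Gbp7. TPM orders genes within a genotype only. The median tested gene was lower by 0.40 (log2) in Mek1/2-tKO on the TPM scale and higher by 0.01 on the scale of the test, and the TPM ratio of Gbp2, Gbp6, Igtp and Iigp1 falls below 1 where their CPM ratio lies above it. All comparisons below are therefore in CPM scaled by edgeR's TMM factors.

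The 3 regulatory IRG genes lie on chromosome 11, and their fold changes were unequal. The counted annotations of Igtp and Irgm2 overlap there, and Irgm1 lies apart from them. Irgm1 (ENSMUSG00000046879.7, chromosome 11, 48861968 to 48871683, minus strand) was at 228 and 208 CPM in WT and at 532 and 464 CPM in Mek1/2-tKO. Both knockout libraries were more than 2-fold above both WT libraries. The log2 fold change of 1.19 (standard error, SE, 0.09, edgeR quasi-likelihood adjusted p = 7.96e-08) was the largest of the 10. Irgm2 (ENSMUSG00000069874.7, 58199618 to 58222782, plus strand) had 56.2 and 55.8 CPM in WT and 76.2 and 84.7 CPM in Mek1/2-tKO. Its libraries did not overlap either, but its log2 fold change of 0.52 (SE 0.10, edgeR quasi-likelihood adjusted p = 4.96e-04) stayed under the fold change required. Without Mek1/2-tKO replicate 1 the value was 0.60 and passed.

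Igtp (ENSMUSG00000078853.8, 58199556 to 58207591, plus strand), which begins next to Irgm2 on the same strand, had 397 and 399.7 CPM in WT and 424 and 376 CPM in Mek1/2-tKO. The genotypes overlapped, with both WT libraries between the knockout libraries. Its log2 fold change was 0.01 with a 95% interval of -0.16 to 0.17, which leaves room for a small difference in either direction, and it was -0.24 once trends with GC content and exon length were removed. Within each library, the counts of Irgm1 were 0.574 and 0.520 times those of Igtp in WT and 1.25 and 1.23 times in Mek1/2-tKO. The counts of Irgm2 were 0.141 and 0.140 times those of Igtp in WT and 0.180 and 0.225 times in Mek1/2-tKO. These ratios do not depend on the scaling between libraries, and the pairs were picked after the values were seen. The annotations of Igtp and Irgm2 share exon bases, 8.01% of those of Igtp and 4.39% of those of Irgm2, and reads there could be split or dropped by the counting.

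The effector Iigp1 (ENSMUSG00000054072.11) lies apart from the other IRG members on chromosome 18 (60376029 to 60392627, plus strand). It was at 186 and 179.6 CPM in WT and at 193 and 200.3 CPM in Mek1/2-tKO. The knockout libraries were both above the WT libraries by a narrow margin. The log2 fold change of 0.11 had a 95% interval of -0.05 to 0.27 and an adjusted p of 0.239 (edgeR's quasi-likelihood test). Of the 4 IRG members, 1 (Irgm1) was called higher, beside 19.3% of all genes tested. The other GMS genes, Irgm2 and Igtp, were not called.

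Among the GBP genes, 3 of 6 were higher, beside 19.3% of all genes tested. Gbp3 (ENSMUSG00000028268.14, chromosome 3, 142560026 to 142573209, plus strand) was read at 45.7 and 45.0 CPM in WT and at 106 and 96.4 CPM in Mek1/2-tKO. Its log2 fold change was 1.15 (SE 0.10, edgeR quasi-likelihood adjusted p = 3.84e-07). The lower knockout library was above both WT libraries by more than 2-fold. Gbp4 (ENSMUSG00000079363.7, chromosome 5, 105115767 to 105139586, minus strand) was read at 126 and 129.7 CPM in WT and at 277 and 279 CPM in Mek1/2-tKO. Its log2 fold change of 1.12 (SE 0.07, edgeR quasi-likelihood adjusted p = 3.96e-08) had the smallest error of the members called. Gbp4 and Gbp3 reached nearly the same fold change from different chromosomes.

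Gbp7 (ENSMUSG00000040253.15, chromosome 3, 142530342 to 142550149, plus strand) was read at 48.2 and 50.7 CPM in WT and at 75.2 and 80.9 CPM in Mek1/2-tKO. The log2 fold change of 0.66 (SE 0.10, edgeR quasi-likelihood adjusted p = 7.59e-05) passed the fold change narrowly. It was 0.58 and missed it when libraries were scaled by their size alone. Of the exon bases of Gbp7, 11.4% are also annotated to Gm43802 on the same strand, so that its count is uncertain to that extent.

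Gbp2 (ENSMUSG00000028270.12, chromosome 3, 142620602 to 142638008, plus strand), a GBP that travels to pathogen vacuoles, was the most abundant member per exon length. It had 551 and 554 CPM in WT and 642 and 606 CPM in Mek1/2-tKO. The knockout libraries were above the WT libraries, but the log2 fold change was 0.18 (95% interval 0.02 to 0.33, edgeR quasi-likelihood adjusted p = 0.0557), which was not called. In counts of the same library, Gbp4 was 0.229 and 0.234 times Gbp2 in WT and 0.431 and 0.460 times in Mek1/2-tKO.

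Gbp5 (ENSMUSG00000105504.4, chromosome 3, 142493978 to 142522344, plus strand), known for promoting NLRP3 inflammasome assembly, was the single member with a negative log2 fold change. Its level was 121 and 117 CPM in WT and 92.2 and 86.6 CPM in Mek1/2-tKO. Both knockout libraries were below both WT libraries. The log2 fold change of -0.41 (SE 0.09, edgeR quasi-likelihood adjusted p = 0.00116) remained short of 1.5-fold, and it was -0.11 after trends with GC content and exon length had been taken out. The counts of Gbp3, which lies downstream of Gbp5 in the same cluster, were 0.377 and 0.385 times those of Gbp5 in WT and 1.15 and 1.11 times in Mek1/2-tKO, and per exon length Gbp5 led in WT (34.7 against 26.9 TPM) and Gbp3 in Mek1/2-tKO (44.8 against 19.5 TPM).

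Gbp6 (ENSMUSG00000104713.4, chromosome 5, 105270702 to 105293698, minus strand) was the least abundant member per exon length. It had 19.1 and 19.4 CPM in WT and 24.1 and 25.5 CPM in Mek1/2-tKO. The libraries did not overlap, and the log2 fold change of 0.37 (SE 0.13, edgeR quasi-likelihood adjusted p = 0.0343) stayed under the fold change required. It was 0.67 and past it once the trends with GC content and exon length were removed. Its count is uncertain, since 59.1% of the 150-base windows of its transcripts also occur in Gm43302 or Gbp10.

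**Figure D3:**
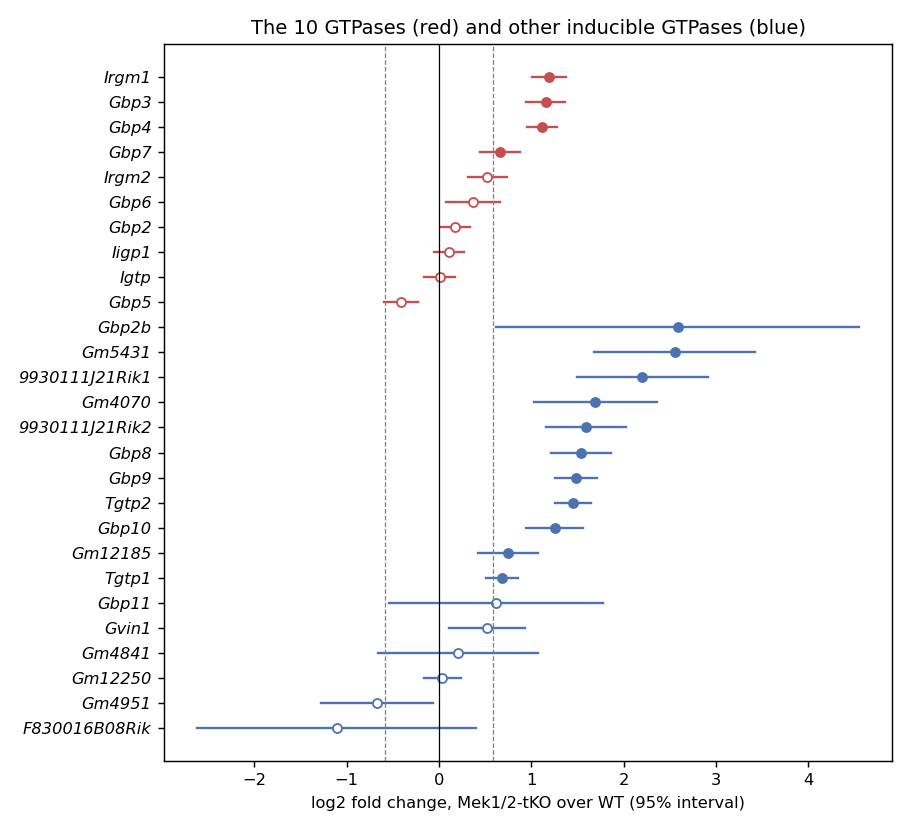
Log2 fold change of Mek1/2-tKO over WT with its 95% interval for the 10 GTPases (red) and for 17 other inducible GTPases (blue). Filled points were called, dashed lines mark a fold change of 1.5 in either direction. The members run from -0.41 (Gbp5) to 1.19 (Irgm1), and 11 of the 17 other GTPases are called higher.

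Other inducible GTPases, which take in the remaining GBPs, the Tgtp genes and very large GTPases, were read as a fixed list. Of 19 listed, 17 were found and tested, 11 were higher and 0 lower (background 19.3% and 16.4%), with a median log2 fold change of 1.25. At an unadjusted p under 0.05 and that fold change 1 was lower (Gm4951), and DESeq2 called 0 lower. A difference between this list and the 10 members was not tested. Gbp8 had 9.80 and 10.4 CPM in WT and 27.4 and 31.2 CPM in Mek1/2-tKO, a log2 fold change of 1.54, and lies beside Gbp4 in the chromosome 5 cluster. Gm5431 (2.55), 9930111J21Rik1 (2.20), 9930111J21Rik2 (1.59) and Gm4070 (1.69) were also higher on the log2 fold change scale, but 11.4% to 93.4% of their 150-base windows recur in related genes and their single values are uncertain. Gbp2b had 1.18, 1.24 and 1.94 CPM in 3 libraries and 12.5 CPM in Mek1/2-tKO replicate 2. Its log2 fold change fell from 2.58 to 0.67 without that library and was then not called. Relatives that interferons are not known to induce did not share a direction. Of 5 tested, Irgc1 was higher from a level under 0.21 CPM in WT, the membrane-shaping atlastins Atl2 (-0.60) and Atl3 (-0.94) were lower, and Atl1 and Irgq were not called. Atl2 lost its call with a minimum of 10 counts per library (-0.58) and with GC and length trends removed (-0.17).

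Upstream of the GTPases, the ligand had a far larger fold change than any member. Ifng, which encodes interferon-γ, was at 127 and 121 CPM in WT and at 2054 and 1773 CPM in Mek1/2-tKO, a log2 fold change of 3.95 (SE 0.10, edgeR quasi-likelihood adjusted p = 1.80e-12). Ifng is also a product of NK cells, CD8 T cells and γδ T cells, whose markers were higher in the same libraries. Of the exon bases of Ifng, 26.0% are also annotated to Gm49751. The ligand-binding receptor chain Ifngr1 rose from 37.2 and 36.0 CPM to 64.9 and 65.8 CPM (log2 fold change 0.84). The signalling chain Ifngr2 had a log2 fold change of 0.51, which was under the fold change required.

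**Figure D4:**
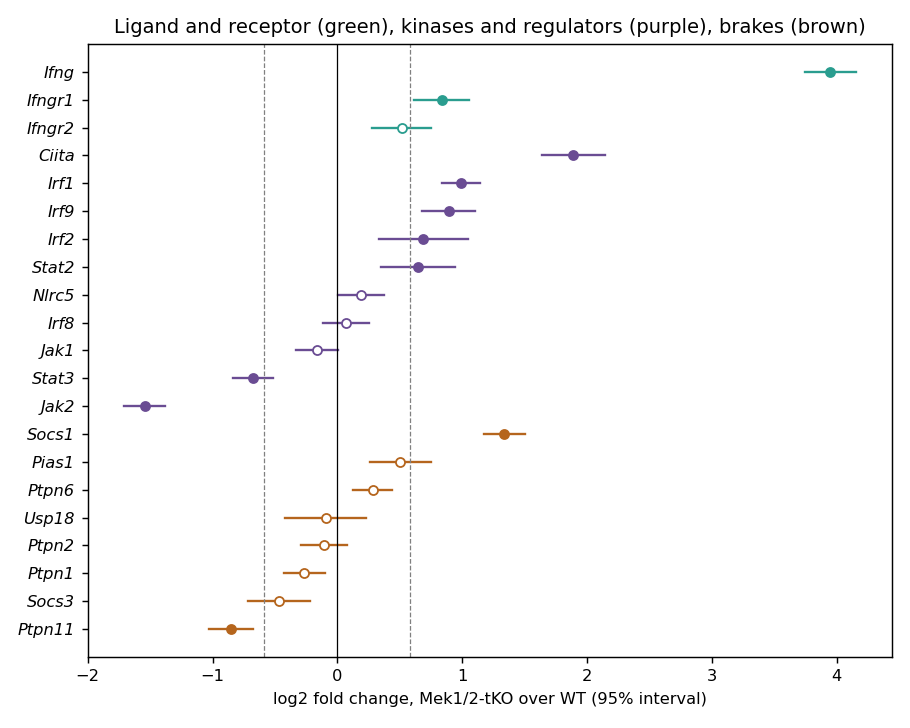
Log2 fold change of Mek1/2-tKO over WT with its 95% interval for the interferon-γ ligand and receptor (green), for kinases and transcription regulators (purple) and for brakes on the pathway (brown). Filled points were called, dashed lines mark a fold change of 1.5. Ifng stands at 3.95, Jak2 at -1.54 and Socs1 at 1.34.

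The kinases and regulators between receptor and GTPase promoters went in both directions. Of 10 reported, 5 were higher and 2 lower, against a background of 19.3% and 16.4%. Jak2, the kinase bound to Ifngr2, fell from 296 and 289 CPM to 98.9 and 101 CPM, a log2 fold change of -1.54 (SE 0.08), while Jak1, the partner kinase on Ifngr1, was not called (-0.16). Irf1 rose from 233 and 232 CPM to 465 and 460.2 CPM (0.99, SE 0.07). Irf9 (0.89), Stat2 (0.64) and Irf2 (0.69), the last a repressor of ISRE-driven genes, were higher as well. Irf2 was at 44.3 CPM in one knockout library and at 69.6 CPM in the other, and its value was 0.31 without Mek1/2-tKO replicate 2. Stat2 was at 0.42 without that library and at 0.48 without WT replicate 1, and was not called in either case.

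Ciita, the master regulator of MHC class II genes, had the largest log2 fold change of these regulators, 1.89, and is also expressed by B cells. Stat3, which transmits the IL-6 signal given in the culture, was lower (-0.68), but was not called with GC and length trends removed (-0.33). Irf8 (0.07) and Nlrc5 (0.19), the regulator of MHC class I genes, were not called. Among 8 brakes on the pathway, the JAK inhibitor Socs1 was higher at 188 and 192 CPM against 458 and 500.3 CPM (1.34, SE 0.08), and the phosphatase Ptpn11 was lower (-0.85). The other brakes, Socs3 (-0.47), Ptpn1 (-0.27), Ptpn2 (-0.11), Ptpn6 (0.28), Pias1 (0.50) and Usp18 (-0.10), were not called. With GC and length trends removed, Ptpn11 lost its call (-0.57), while Socs3 (-0.64) and Pias1 (0.84) passed.

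Type I interferons can induce the same GTPases. Ifnb1, Ifna1, Ifna2, Ifna4 and Ifna5 had 0 counts in all 4 libraries, which allows a level of up to 0.154 to 0.194 CPM per library (3 counts, counting error only). The receptor chain Ifnar2 was higher (0.64) and Ifnar1 was not called (-0.33), and Ifnar2 lost its call without WT replicate 1 (0.58) and without Mek1/2-tKO replicate 1 (0.54). Of 19 type I interferon-stimulated genes, 9 were higher and 1 lower (background 19.3% and 16.4%), with a median log2 fold change of 1.16. The lower gene, Oas3 (-0.64), was not called without WT replicate 2 (-0.52), without Mek1/2-tKO replicate 1 (-0.51) or with GC and length trends removed (-0.36). Ifit3, an RNA-sensing effector, rose from 0.513 and 0.467 CPM to 38.7 and 35.7 CPM (6.23), and 18.6% of its 150-base windows recur in Ifit3b. Rtp4 (3.87), Irf7 (3.07), Oasl2 (2.07), Oas2 (2.00) and Oasl1 (1.58) were higher, whereas Isg15 (-0.20), Mx1 (0.06) and Ifit1 (0.38) were not called. The list thus held larger fold changes than any of the 10 GTPases beside genes that were not called.

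Of 21 tested interferon-γ targets outside the GTPases, 11 were higher and 2 lower (background 19.3% and 16.4%), with a median log2 fold change of 0.72. The MHC class II genes led, with H2-Aa at 3.07, H2-Eb1 at 2.98, Cd74 at 2.69 and H2-Ab1 at 2.66. These genes are constitutive in B cells, and the B-cell markers of the same libraries had a median log2 fold change of 2.12. The chemokine Cxcl9 was higher (2.16) from 2.51 and 2.75 CPM to 11.1 and 12.5 CPM. Nos2, the inducible nitric oxide synthase, was lower (-2.41). Tap1 (-0.02) and Psmb8 (0.32), peptide transport and immunoproteasome genes of the MHC class I route, were not called. The immunoproteasome genes Psmb9 (0.68) and Psmb10 (1.23) were higher. Psmb9 lost its call without Mek1/2-tKO replicate 1 (0.57).

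GTPases of both families are placed on vacuoles by the ATG8 conjugation machinery and by ubiquitin ligases. Of 14 genes of this machinery, 3 were higher and 1 was lower, near the background of 19.3% and 16.4%. Gabarap rose from 95.9 and 94.3 CPM to 244 and 207 CPM (1.24), Map1lc3b from 35.8 and 38.2 CPM to 72.3 and 69.1 CPM (0.93), and the cargo receptor Sqstm1 from 150.3 and 155 CPM to 235 and 238 CPM (0.63). The ligase Traf6 was lower (-0.84), and the conjugation genes Atg3 (0.08), Atg5 (0.33), Atg7 (-0.38) and Atg16l1 (-0.20) were not called. Sqstm1 lost its call with library size alone (0.55), and Traf6 with GC and length trends removed (-0.48). Of 8 tested genes of the inflammasomes that GBPs act on, 7 were higher and 0 lower in edgeR and in DESeq2 (background 19.3% and 16.4%), and 0 were lower at an unadjusted p under 0.05, with a median log2 fold change of 1.37. Nlrp3, also in this list, had 4 and 6 counts in WT and 5 and 25 counts in Mek1/2-tKO, too few to be tested. Casp1 rose from 11.4 and 12.3 CPM to 42.8 and 32.7 CPM (1.67), the pore-forming Gsdmd from 28.2 and 29.6 CPM to 59.7 and 62.3 CPM (1.08), and the DNA sensor Aim2 from 24.7 and 27.0 CPM to 51.7 and 51.2 CPM (0.99). Il1b (2.51), Nlrc4 (2.24) and Il18 (2.06) were higher from levels under 3 CPM in WT. Il18 lost its call without Mek1/2-tKO replicate 1 (1.19) and without WT replicate 1 (1.90). Il1b, Nlrc4 and Casp1 are also expressed by myeloid cells, whose summed markers were higher in these libraries.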

How the data were processed

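The authors trimmed read pairs of 150 nucleotides with Trimmomatic 0.36, aligned them to GRCm38 and counted uniquely mapped reads per gene by featureCounts (Subread 1.5.1), and the deposited values are raw counts without normalization. The library kit was stranded, but the strand setting of the counting and the annotation release are not given in the sources used here. Symbols were matched to 54723 of 54752 identifiers through GENCODE vM21.

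Counts of 2 WT and 2 Mek1/2-tKO libraries were fitted in edgeR 4.0.16 under R 4.3.3 (TMM scaling, filterByExpr, quasi-likelihood fit with the robust option, p values adjusted by Benjamini-Hochberg over 14330 genes). The study's thresholds, a 1.5-fold difference and an adjusted p below 0.05, were used, and DESeq2 (here 1.42.0, in the study 1.40.1) was an alternative. Replicates differed by more than sampling noise (chi-square per gene 4.11 in WT, 10.7 in Mek1/2-tKO). The fit was also run on simulated counts with known fold changes, with few changed genes and a single dispersion for all genes. Those settings differ from these data, so that run cannot give the error of the calls here. CPM used TMM-scaled totals, and TPM the exon lengths in the files. Shared exons, 150-base windows of GENCODE transcripts and RefSeq promoter letters were searched with Python 3.11.15.

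The members and lists were chosen with earlier results of these data known. Given by name were all members, Map2k1, Map2k2, ligand, receptor, signal and brake genes, up to 6 called genes of each list (those of largest fold change) and the 5 genes nearest to the members in profile. Genes that were not called or not tested, beyond these, and the called genes Psmb9 and Psmb10 were named after their values were seen. Alternatives were a replicate block, no scaling beyond library size, size factors of DESeq2, edgeR's likelihood-ratio test, removal of the filter or a minimum of 10 counts per library, a 2-fold threshold, RPKM in place of TPM and leaving out each library. Removal of GC and length trends (lowess, span 0.3) was added after the data were seen. It changed the fold changes only and kept the adjusted p values of the main fit. One gene of the fixed lists is not reported here.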

Additional observations from a re-analysis of the deposited data

How the results depend on the processing

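Of 120 values of the 10 members under 12 alternatives (8 with all libraries, 4 without 1 library), 117 kept their call, and 0 called values turned sign. Igtp, not called, lay between -0.24 and 0.08 over these settings. The exceptions were Gbp7, at 0.58 with library size alone, Gbp6, at 0.67 with GC and length trends removed, and Irgm2, which ranged from 0.44 to 0.60 with 1 library left out. With GC and length trends removed, only the fold change could alter a call, since the adjusted p values were not refitted. The replicate block gave 2652 genes higher, 2300 lower and 4 members higher, and it changed no member's call. The replicate numbers share only a number, since the deviations of libraries with the same number correlated at -0.02 across genes. A fold change of at least 2 gave 1725 genes higher and 1040 lower. Among other inducible GTPases, 1 gene was lower under the likelihood-ratio test, with library size alone and without the filter, and 0 to 1 with 1 library left out, and this gene was Gm4951. Of the counts for the other lists, 230 of 260 stayed within 1.5 times, and 9 of the 30 that moved did so at a fold change of at least 2. Library size alone shifted the median of all genes by -0.08. That setting leaves out the TMM factors, which were 1.034 and 1.026 in WT and 0.949 and 0.993 in Mek1/2-tKO. The cause of the moved calls and counts was not tested. RPKM gave the same order of the members as TPM in both genotypes. At 2 libraries per genotype and under 20 CPM, as for Gbp6 in WT, the 95% interval (0.07 to 0.66) spans the threshold.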

Other observations

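The genes whose profile over the 4 libraries was nearest to the median profile of the 10 GTPases were Calhm2, Rnf25, Tspan32, Pon2 and Nsmf. Their distances (Euclidean, in centred log2 CPM) ran from 0.00845 to 0.0341, and their log2 fold changes from 0.44 to 0.47. None of them was called, because their fold changes stayed under 1.5 like the median of the members. With 4 libraries in 2 genotypes, this measure ranks genes by their fold change and by the spread between replicates.

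GBPs 2 and 5 carry a CaaX box and are attached to membranes through prenylation. Of 6 prenylation genes, 0 were higher and 0 lower in edgeR's quasi-likelihood test (background 19.3% and 16.4%). At an adjusted p under 0.05 alone, 4 passed, against 55.0% of all tested genes. At an unadjusted p under 0.05 alone, 2 were higher and 3 lower, and the share over all genes is not given here. The geranylgeranyl transferase subunit Pggt1b was at 20.6 and 23.2 CPM in WT and at 13.8 and 15.4 CPM in Mek1/2-tKO, and its log2 fold change of -0.58 lay at the threshold. It was called lower under 7 of 12 alternatives, at -0.59 in DESeq2 and in the fit without a filter, at -0.59 with a replicate block and at -0.64 to -0.68 with GC and length trends removed, with library size alone, without WT replicate 1 and without Mek1/2-tKO replicate 2. The CaaX protease Rce1 was at 0.40. Pggt1b and Rce1 were singled out after their values were seen.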
